A study of Rattus norvegicus with 6 samples.

Results

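Intestinal iron handling was followed through 8 genes, Slc11a2, Cybrd1, Heph, Slc40a1, Tfrc, Fth1, Ftl1 and Ireb2, in nuclei of rat ileum. The genes were chosen by name, for their known roles in iron uptake, export, storage and regulation, by a rule that uses no measured value, although earlier results of these data were known. All 8 were present among the 28282 gene symbols of the count tables. Each was read in every nucleus class of the tissue and compared between rats with severe acute pancreatitis and sham-operated rats.

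Iron of the diet is reduced at the brush border and carried into the absorptive enterocyte, where it is either stored in ferritin or exported to the blood through ferroportin and loaded onto transferrin. Dividing crypt cells take up iron from the blood side through the transferrin receptor. Iron regulatory proteins bind the transcripts of several of these genes when iron is scarce, and the duodenum, not the ileum, is the main site of dietary iron absorption.

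The study asked what severe acute pancreatitis does to the ileum. The 3 SAP rats had received 3% sodium taurocholate, at 0.1 mL per 100 g of body weight, into the pancreatic duct, and the duct was then clamped for 5 min. The 3 CON rats had a laparotomy alone, with no infusion. All 6 were male wild type Sprague-Dawley rats, 6 weeks old when acclimatization of 7 days began, killed at 24 h and kept without food after surgery. Each rat gave 1 library of single-nucleus RNA, and all 6 libraries carried the same batch number in the labels. The infusion went into the pancreas and not the ileum, and the sham rats had no infusion to match it.

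After filtering, 40970 of 90461 barcodes remained as nuclei, between 3189 and 9246 per library. Their summed UMIs (unique molecular identifiers, each counted as 1 RNA molecule) ranged from 5549260 in SAP 1 to 28771508 in CON 1, and the median per nucleus from 1516 to 1889.5. The barcode lists of CON 2 and SAP 1 went down to 545 and 502 UMIs, whereas those of the other 4 libraries stopped at 1000 or above. The nuclei formed 17 classes named from marker genes and 9 clusters that stayed without a name, and 18 of these 26 groups held at least 10 nuclei in every library. Levels are given as CPM, the UMIs of a gene per 1000000 UMIs of the same library and class, and are compared between classes and libraries but not between genes.

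The named classes were checked against their markers. Enterocyte-like nuclei held 1124 CPM of Anpep against 164 CPM in all other nuclei, and stem/TA-like nuclei, which join crypt stem and transit-amplifying (TA) cells, held 773 against 166 CPM of Olfm4. Macrophage-like nuclei held 714 against 36.6 CPM of C1qa. RNA outside its cell of origin was present: in T-like nuclei, which should lack them, 7 enterocyte markers stood at 11.6% to 52.4% of their enterocyte-like level, with a median of 14.4%.

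The composition of the tissue differed between libraries and touches every sum over classes. Enterocyte-like nuclei made up 8.76%, 5.40% and 10.5% of CON 1, 2 and 3, and 17.9%, 44.9% and 11.6% of SAP 1, 2 and 3. Stem/TA-like nuclei made up 23.2%, 31.4% and 14.7% of the CON libraries and 15.1%, 2.68% and 9.82% of the SAP libraries. The share of nuclei named enterocyte-like was thus higher in each SAP library than in each CON library, and SAP 2 stood far above the others. Unnamed cluster 2, whose nearest named class was enterocyte-like, made up 5.89%, 8.75% and 7.36% of CON and 17.4%, 19.1% and 4.92% of SAP. Counted together with it, SAP 3 falls below CON 3, so the separation depends on where the class is drawn. The paper found its enterocyte increase not statistically significant at the sample level.

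Uptake at the brush border begins with Cybrd1, a ferrireductase that turns ferric into ferrous iron. Cybrd1 was low in this tissue, with 1200 UMIs in all nuclei together. Enterocyte-like nuclei, in which the enzyme acts in the duodenum, held 5.49, 1.70 and 11.1 CPM in CON 1, 2 and 3 and 1.84, 1.81 and 12.6 CPM in SAP 1, 2 and 3, from 88 UMIs in all. The third library of each group was the highest and the groups overlapped.

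The higher levels of Cybrd1 lay outside the absorptive epithelium. Fibroblast-like nuclei, marked by Pdgfra at 295 against 13.6 CPM in other nuclei, held 36.1, 56.0 and 54.4 CPM in CON and 21.4, 17.6 and 57.5 CPM in SAP. This was 4.57 to 33.0 times the enterocyte-like level, with the fibroblast-like level higher in 6 of 6 libraries, although it rested on 97 UMIs, of which SAP 1 and SAP 2 gave 1 and 2. Cluster 9, an epithelial cluster with Lgr5 at 378 against 51.1 CPM and Habp2 at 500 against 16.7 CPM in other nuclei, had a mean of 29.9 CPM ± 15.4 (SD, 6 libraries). It stayed unnamed, with 2 of 7 stem and 4 of 6 Paneth markers over 2-fold above other nuclei. In it SAP 2 had no Cybrd1 UMI, which allows up to 14.4 CPM (the level of 3 UMIs). In mesothelial-like nuclei the pooled level was 74.1 CPM (exact 95% Poisson interval 50.0 to 105.7, from 30 UMIs). From fibroblast-like to tuft-like, the highest and the lowest of the 18 groups, the means differed 13.7-fold. Each of the 17 neighbouring pairs in that order differed by less than the larger of their SDs. Such pairs lie close by their order, and the SD joins CON and SAP libraries, so this count does not show that classes are alike.

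Slc11a2 encodes DMT1, the transporter that carries ferrous iron across the brush border and out of endosomes. Its group means lay close together. The highest mean, in cluster 2, was 2.26 times the lowest, in tuft-like nuclei. Neighbouring pairs of the 18 groups differed by less than the larger SD, as they also did for Heph at 7.05-fold from lowest to highest.

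Within the epithelium Slc11a2 was highest between the crypt and the villus tip. Cluster 2, an unnamed epithelial cluster led by Ceacam20, Plb1 and Car4, held 88.2, 103 and 134 CPM in CON and 49.2, 98.8 and 84.5 CPM in SAP. Each value exceeded that of stem/TA-like nuclei of the same rat, by 1.46 to 1.76-fold. Cluster 9, rich in Lgr5 and not shown in the figure, had a mean of 73.1 CPM. It was above stem/TA-like nuclei in 5 of 6 libraries and above enterocyte-like nuclei in 3 of 6. Enterocyte-like nuclei consisted of 3 clusters. Cluster 4, with the ileal bile acid transporter Slc10a2 at 450 CPM, held 103, 124 and 121 CPM of Slc11a2 in CON and 50.4, 79.7 and 101 CPM in SAP. Cluster 5, with the villus tip genes Ada at 431 and Apoa4 at 1045 CPM, held 49.6, 9.78 and 42.0 CPM in CON and 23.7, 52.5 and 22.8 CPM in SAP. Cluster 4 was thus higher than cluster 5 in 6 of 6 libraries, by 1.52 to 12.7-fold with a median of 2.47-fold, where the widest ratio comes from 2 UMIs in cluster 5 of CON 2. Cluster 19, not shown in the figure, had Fabp6 at 15927, Ada at 59.3 and Apoa4 at 543 CPM. Its mean of Slc11a2 was 47.7 CPM against 90.8 CPM in cluster 4 over 5 libraries, with cluster 4 the higher in 4. A level below that of cluster 4 was thus not particular to cluster 5. Ireb2 was also higher in cluster 4 than in cluster 5 in 6 of 6 libraries, by 1.17 to 1.60-fold, whereas Heph was higher in cluster 4 in 3 of 6.

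**Figure D1:**
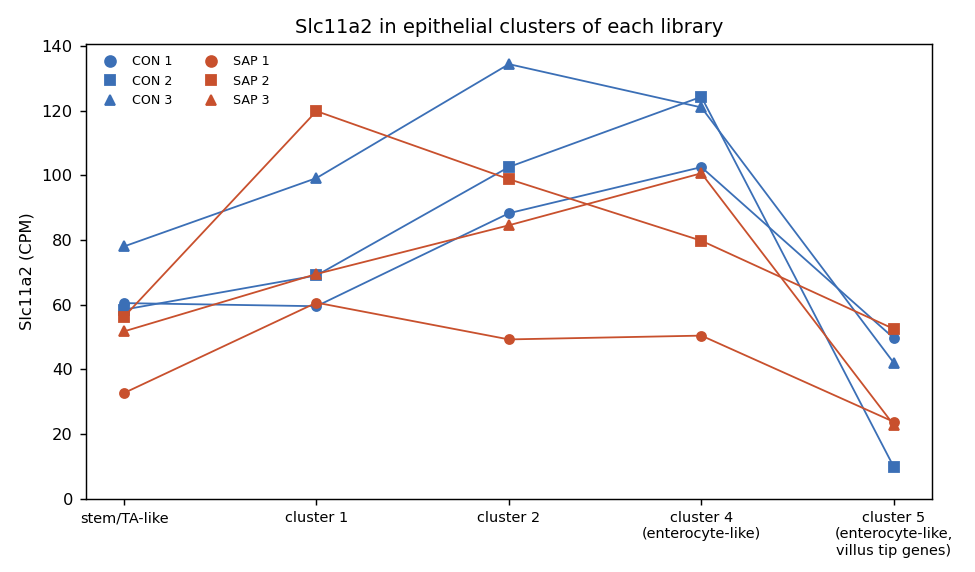
Slc11a2 level (CPM, vertical axis) in 5 epithelial groups ordered from crypt to villus tip by their marker genes, with a line for each library (CON blue, SAP red, the symbol giving the replicate). Every line falls from cluster 4 to cluster 5, and in cluster 4 the CON lines reach 103 to 124 CPM and the SAP lines 50.4 to 101 CPM.

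Export at the opposite side of the enterocyte uses Heph, hephaestin, a copper ferroxidase that oxidizes iron as it leaves the cell. It is described with Tfrc, the transferrin receptor, and the RefSeq promoters of both are printed because these genes ran in opposite directions along the villus. The windows are the 250 bases before the annotated start, on the GRCr8 assembly, at chrX:65308806-65309055 on the plus strand for Heph and at chr11:81690319-81690568 on the minus strand for Tfrc. Capitals mark ACGTG, the core of the hypoxia response element, searched on both strands (CACGT on the other).
Heph: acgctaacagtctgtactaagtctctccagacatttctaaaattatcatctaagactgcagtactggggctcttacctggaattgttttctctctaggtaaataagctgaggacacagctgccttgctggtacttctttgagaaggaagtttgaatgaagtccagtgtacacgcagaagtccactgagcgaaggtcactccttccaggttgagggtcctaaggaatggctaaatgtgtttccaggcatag
Tfrc: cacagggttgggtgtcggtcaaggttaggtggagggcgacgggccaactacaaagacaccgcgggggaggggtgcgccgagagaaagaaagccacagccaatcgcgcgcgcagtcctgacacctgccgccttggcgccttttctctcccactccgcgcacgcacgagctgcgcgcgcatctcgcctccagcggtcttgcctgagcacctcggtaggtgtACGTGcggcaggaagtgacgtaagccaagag
The Tfrc window had 1 match to ACGTG, 31 bases before the start and the Heph window none. The core TTTAT of the caudal-type homeobox factors (ATAAA on the other strand) was in neither. Among all 33469 promoter windows of the table, 16.6% held ACGTG and 39.3% held TTTAT, so such matches are common. Of the 8 genes, 6 had a window in the table, and beyond Tfrc the only match to either core was TTTAT before an annotated start of Slc11a2.

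Heph was highest in enterocyte-like nuclei, with 333, 312 and 431 CPM in CON 1, 2 and 3 and 320.1, 426 and 471 CPM in SAP 1, 2 and 3. Stem/TA-like nuclei held 51.2, 63.8 and 96.0 CPM in CON and 59.0, 112 and 80.4 CPM in SAP. No library's values overlapped between the classes, and the ratio within a rat was 3.79 to 6.51, with a median of 5.15. From crypt to villus the means over 6 libraries were 77.1 CPM ± 23.6 (SD) in stem/TA-like nuclei, 117 CPM in cluster 1, 240.1 CPM in cluster 2 and 382 CPM ± 68.1 in enterocyte-like nuclei. The share of enterocyte-like nuclei with a Heph UMI averaged 51.0%, and 35.1% after each nucleus was thinned to 1200 UMIs. In T-like nuclei these shares were 22.9% and 12.3%, at median depths of 1958 and 1749 UMIs.

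Macrophage-like nuclei were the other place of high Heph. They held 237, 240.3 and 500.3 CPM in CON and 226, 397 and 487 CPM in SAP, from 686 UMIs. This was 1.96 to 4.26 times the T-like level of the same rat, higher in 6 of 6 libraries, and above the enterocyte-like level in 2 of 6. Enterocyte markers stood in macrophage-like nuclei at a median of 19.1% of their enterocyte-like level, and the part of free RNA in the Heph level was not tested. Paneth-like nuclei were low, with a pooled 15.8 CPM, although 403 of the 494 nuclei of this class came from CON 1.

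Tfrc, which brings transferrin-bound iron into the cell, ran the other way. Stem/TA-like nuclei held 162, 144 and 177 CPM in CON and 138, 139 and 168 CPM in SAP. Enterocyte-like nuclei held 26.4, 54.3 and 31.3 CPM in CON and 29.4, 17.7 and 28.4 CPM in SAP. The enterocyte-like value was the lower in 6 of 6 rats, at 0.128 to 0.378 of the stem/TA-like value. The means fell in the order 155 CPM ± 16.6 in stem/TA-like nuclei, 99.3 CPM in cluster 1, 56.6 CPM in cluster 2 and 31.3 CPM ± 12.3 in enterocyte-like nuclei. Cluster 9, rich in Lgr5, is outside this series and had a mean of 57.4 CPM. It was below stem/TA-like nuclei in 6 of 6 libraries, at 0.222 to 0.529 of their value, so high Tfrc did not extend to every group with crypt genes. For Tfrc the step from stem/TA-like nuclei to cluster 1 was the only neighbouring pair of 17 that exceeded the larger SD, whereas for the other 7 genes no pair did.

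**Figure D2:**
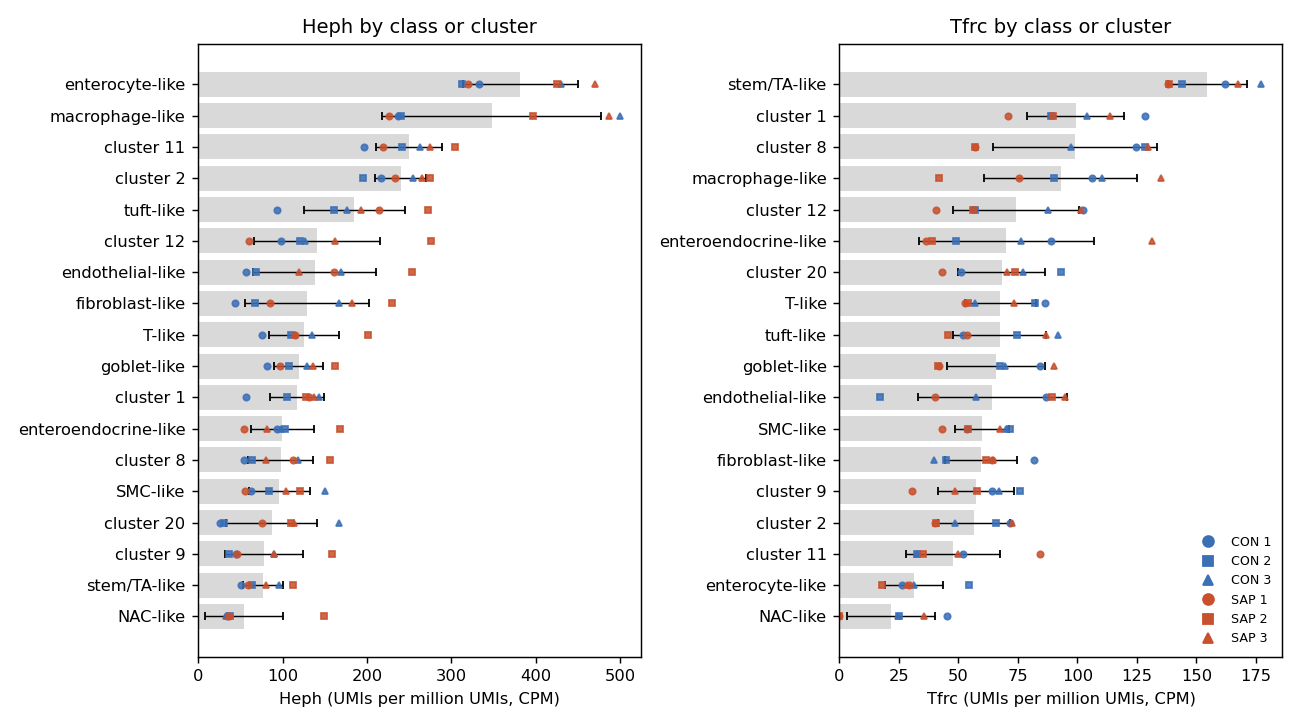
Heph (left) and Tfrc (right) in the 18 groups of nuclei that reached 10 nuclei per library, as CPM on the horizontal axis. Bars are means over 6 libraries with SD, points are libraries (CON blue, SAP red), and enterocyte-like nuclei are at the top for Heph (382 CPM) and second from the bottom for Tfrc (31.3 CPM).

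Slc40a1 encodes ferroportin, the exporter that Heph works beside and by which macrophages return iron to the blood. It was nearly absent, with 294 UMIs in all nuclei of the 6 libraries together. Macrophage-like nuclei held 21.2, 22.5 and 17.2 CPM in CON and 24.2 CPM in SAP 3. SAP 1 and SAP 2 had no Slc40a1 UMI in 25 and 47 macrophage-like nuclei, which allows up to 75.3 and 15.7 CPM. The CON levels lay below the limit of SAP 1 and above that of SAP 2, and the class rested on 33 UMIs in all. Enterocyte-like nuclei held 0.920 to 5.09 CPM from 31 UMIs, with 0.567% of nuclei holding a UMI against 0.337% of T-like nuclei, so ferroportin in the absorptive cells was not told apart from background at this depth.

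Fth1 and Ftl1, the heavy and light chains of ferritin, store iron. Both have many near copies in mammalian genomes, and reads shared with such copies make their counts less certain. Fth1 in enterocyte-like nuclei was 422, 96.8 and 575 CPM in CON and 1105, 859 and 511 CPM in SAP. It exceeded the stem/TA-like level in 6 of 6 rats, by 2.18 to 7.23-fold. The SD of Fth1 among libraries was nearly as large as its mean in SMC-like (smooth muscle) nuclei, at 792 CPM ± 747, and no neighbouring pair of classes differed beyond the spread. Neutrophil-like nuclei, with S100a8 at 18790 against 12.2 CPM in other nuclei, held a pooled 6652 CPM of Fth1 (exact 95% Poisson interval 6324 to 6993), from 74 nuclei of which 25 were in SAP 1 and 38 in SAP 3.

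Ireb2 encodes iron regulatory protein 2, which binds iron-responsive elements in ferritin and Tfrc transcripts. Its level was the most even of the 8, with 1.95-fold between the highest and the lowest mean, from 56.0 CPM in cluster 8 to 109 CPM in enteroendocrine-like nuclei.

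Genes with the most similar pattern were ranked by Pearson's r of log2(mean CPM + 1) over the 26 classes and clusters, among 10642 genes with at least 1000 UMIs. These classes share libraries and free RNA, so r is a description. For Heph they were Kifc3 (0.882), Apobec1 (0.880) and Cda (0.874), and for Tfrc Kcnn4 (0.908), Cd200l2 (0.901) and Mrto4 (0.893). Slc11a2 ran most closely with Abcd4 (0.783), Abcf3 (0.758) and Plpp1 (0.743), and Cybrd1 with Col18a1 (0.773), Lifr (0.751) and Htra1 (0.741). Those of Slc40a1 were C10h5orf15 (0.782), Pnp (0.781) and C1qa (0.756), and those of Ireb2 Rnf111 (0.913), Usp25 (0.909) and Septin7 (0.902). Fth1 was closest to Gapdh (0.945), H3f3b (0.932) and Gabarap (0.914), whereas Ftl1 was closest to LOC100360087 (0.966), LOC687780 (0.953) and LOC103691939 (0.910), of which the first has Ftl1 as a synonym in RefSeq. Fth1 and Ftl1 themselves reached 0.675.

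SAP was then compared with CON over all nuclei, with edgeR's quasi-likelihood test on UMIs summed per library. A call needed a Benjamini-Hochberg adjusted p under 0.05 together with a log2 fold change of 0.5 or more in either direction. None of the 8 genes was called, and neither was any of the 19187 genes tested (0%). At an unadjusted p under 0.05 edgeR gave 1618 genes (8.43%), of which Heph was the 1 member, and DESeq2 called 214 genes by the same rule, none of them a member. In this comparison and in all that follow, 1 library stands for 1 rat.

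Heph was 93.7, 109 and 187 CPM over all nuclei of CON 1, 2 and 3 and 163, 318 and 186 CPM in SAP 1, 2 and 3. SAP 2 was the highest and the groups overlapped. The edgeR log2 fold change of SAP over CON was 0.86 ± 0.352 (SE, n = 3 per group), with an adjusted p of 0.573. Without SAP 2 it was 0.41. SAP 2 was also the library with the most enterocyte-like nuclei, the class highest in Heph.

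Tfrc was 86.7, 94.2 and 81.0 CPM in CON and 57.3, 36.2 and 82.4 CPM in SAP. SAP 1 and SAP 2 lay below every CON library and SAP 3 within them. The edgeR log2 fold change was -0.66 ± 0.299 (SE, n = 3 per group), with an adjusted p of 0.612.

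Because these sums follow the share of each class, the levels were recomputed with the class shares held at their mean over the 6 libraries. The 18 classes used hold 88.6% of all UMIs. The log2 ratio of the group means went from 0.78 to 0.27 for Heph and from -0.57 to -0.23 for Tfrc. For Fth1 it went from 1.64 to 1.39, for Ftl1 from 1.29 to 1.35, for Cybrd1 from -0.81 to -0.65 and for Slc11a2 from -0.21 to -0.30. With the shares held, all 8 genes overlapped between the groups and the exact two-sided permutation p was 0.2 to 0.7, where 3 against 3 cannot give a p below 0.1.

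**Figure D3:**
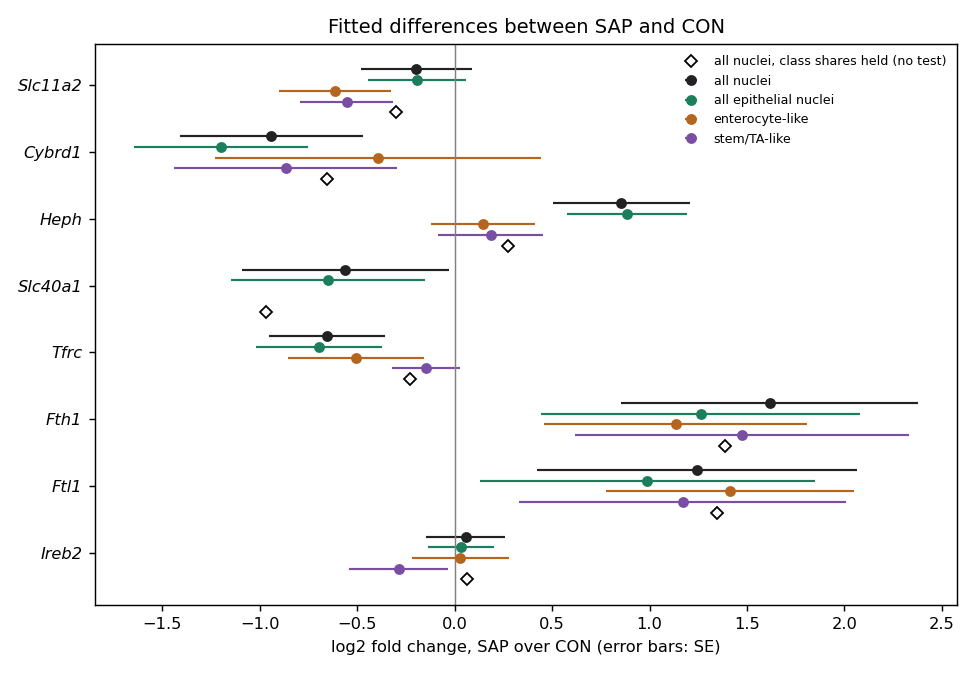
Log2 fold change of SAP over CON (horizontal axis) for the 8 genes, as edgeR estimates with SE in 4 sets of nuclei (filled points) and as the ratio over all nuclei with class shares held (open diamonds, no test). For Heph the estimates of 0.86 over all nuclei and 0.88 over epithelial nuclei stand beside 0.15 in enterocyte-like and 0.19 in stem/TA-like nuclei.

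For Heph and Tfrc, the estimates inside the enterocyte-like and stem/TA-like classes were smaller than over all nuclei. In enterocyte-like nuclei the log2 fold change of Heph was 0.15 ± 0.266 (edgeR, adjusted p = 0.962) and in stem/TA-like nuclei 0.19 ± 0.270. That of Tfrc was -0.51 ± 0.348 (adjusted p = 0.883) in enterocyte-like nuclei and -0.15 ± 0.175 in stem/TA-like nuclei. Over the classes tested, Heph was higher in SAP in 16 of 17, with a median of 0.36 and a range from -0.06 in SMC-like to 0.88 in fibroblast-like nuclei, and Tfrc was higher in 4 and lower in 12 of 16. The villus-crypt gradient, the difference of log2 CPM between enterocyte-like and stem/TA-like nuclei of 1 rat, is not weighted by the shares of these classes. Enterocyte markers stood in stem/TA-like nuclei at a median of 8.30% of their enterocyte-like level. The part of such free RNA, which may follow the shares, was not tested. For Heph the gradient was 2.95, 2.02 and 2.08 in the CON rats and 2.503, 1.89 and 2.52 in the SAP rats. The SAP gradients lay within the range of the CON gradients except for 1.89, and the limma estimate of SAP minus CON was -0.05 ± 0.291 (adjusted p = 0.988). Its sign was not stable, at 1.42 with no integration of the libraries, 0.26 without CON 1 and 0.18 without SAP 2. With no integration the median estimate over all genes tested was 0.64, beside 0.037 in the main fit. For Tfrc the gradient was -2.32, -1.64 and -2.54 in the CON rats and -2.13, -2.93 and -2.54 in the SAP rats, with a limma estimate of -0.36 ± 0.318 (adjusted p = 0.910). Of 12797 genes limma called 1 (0.00781%), which was not a member, and 675 had an unadjusted p under 0.05 (5.27%).

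Over all epithelial nuclei the estimates were close to those over all nuclei. The main edgeR fit called 1 of 17056 genes (0.00586%), St8sia6, a sialyltransferase, a call that was lost with the replicate number as a block. At an unadjusted p under 0.05 there were 2004 genes (11.7%), and Heph (log2 fold change 0.88 ± 0.309, edgeR adjusted p = 0.380) and Cybrd1 were among them. Cybrd1 was 11.4, 11.2 and 11.7 CPM in CON 1, 2 and 3 and 5.24, 2.46 and 8.73 CPM in SAP 1, 2 and 3. Each SAP library was below each CON library, as for 5.24% of the genes tested. The means were 11.4 CPM ± 0.249 and 5.48 CPM ± 3.14 (SD, n = 3 per group, exact two-sided permutation p = 0.1, the smallest this design allows), and the edgeR log2 fold change was -1.20 ± 0.445 with an adjusted p of 0.393. Cluster 9, the epithelial cluster highest in Cybrd1, made up 3.48%, 5.93% and 4.56% of the nuclei of CON 1, 2 and 3 (322, 371 and 384 nuclei). In SAP 1, 2 and 3 it made up 2.35%, 1.46% and 1.63% (75, 87 and 129 nuclei). The part of this share in the epithelial difference of Cybrd1 was not tested. With the TMM scaling of the fit, Heph (higher in SAP, as for 7.1% of genes) and Tfrc (lower, as for 12.4%) were also apart over epithelial nuclei, and Cybrd1 over all nuclei (lower, as for 9.06%). Cybrd1 passed the filter on low counts in 4 classes. The edgeR estimates there were -0.87 ± 0.571 in stem/TA-like nuclei (adjusted p = 0.755), -0.66 in cluster 9, -0.39 in enterocyte-like and -0.15 in fibroblast-like nuclei. In cluster 9 SAP 2 had no Cybrd1 UMI, and SAP 1 and SAP 2 gave few in fibroblast-like nuclei. A gene can pass the filter largely through CON, and the share of genes lower in all such classes was not computed. The shared sign is thus a description only. The enterocyte-like sign turned without CON 3 or without SAP 2.

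**Figure D4:**
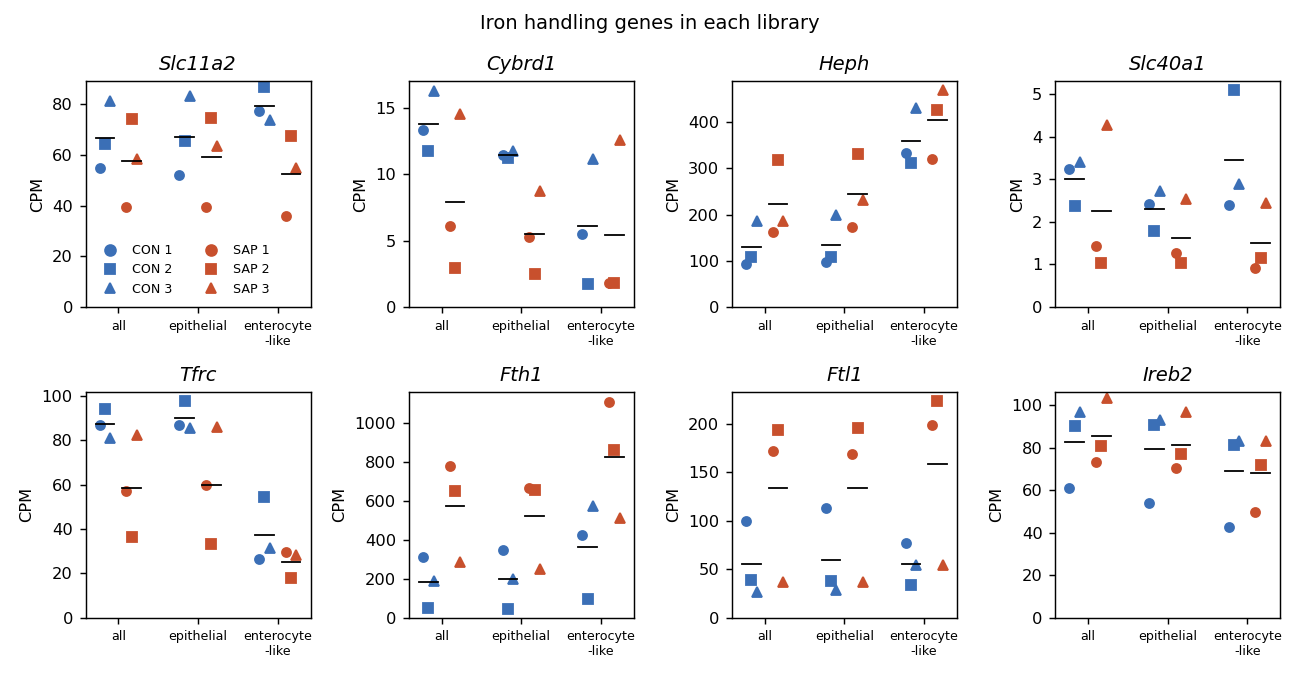
CPM (vertical axes, each starting at 0) of the 8 genes in all nuclei, all epithelial nuclei and enterocyte-like nuclei of each library, with CON in blue, SAP in red, the symbol giving the replicate and the line the group mean. The groups are apart in Cybrd1 over epithelial nuclei (11.2 to 11.7 against 2.46 to 8.73 CPM) and in Slc11a2 over enterocyte-like nuclei (73.7 to 86.6 against 35.9 to 67.3 CPM).

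In enterocyte-like nuclei Slc11a2 was 77.2, 86.6 and 73.7 CPM in CON 1, 2 and 3 and 35.9, 67.3 and 54.8 CPM in SAP 1, 2 and 3. All SAP libraries were below all CON libraries, as for 3.99% of the 11744 genes tested in this class. The means were 79.2 CPM ± 6.65 and 52.6 CPM ± 15.8 (SD, n = 3 per group, exact two-sided permutation p = 0.1). The edgeR log2 fold change was -0.61 ± 0.288 with an unadjusted p of 0.0629 and an adjusted p of 0.865, so the difference did not pass the test. In this class edgeR called none of the 11744 genes (0%) and gave 651 at an unadjusted p under 0.05 (5.54%), while DESeq2 called 20, none of them a member. Cluster 4 showed the same order, with 116 CPM ± 11.7 in CON and 76.9 CPM ± 25.2 in SAP, whereas cluster 5 overlapped. No fit across genes was made for these clusters alone.

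Stem/TA-like nuclei gave the same direction for Slc11a2. They held 60.5, 58.4 and 78.0 CPM in CON and 32.7, 56.2 and 51.7 CPM in SAP. The groups did not overlap, as for 5.28% of 12110 genes with SAP lower, and the edgeR log2 fold change was -0.55 ± 0.240 (unadjusted p = 0.0457, adjusted p = 0.641). The class held 160 nuclei in SAP 2, with 15 UMIs of Slc11a2. Over all nuclei Slc11a2 was 54.8, 64.1 and 81.1 CPM against 39.6, 74.2 and 58.6 CPM, with overlap and a log2 fold change of -0.20 ± 0.284 (edgeR adjusted p = 0.897). In enteroendocrine-like nuclei the order was opposite, with 42.4, 44.1 and 47.7 CPM in CON and 54.5, 73.2 and 86.2 CPM in SAP, from 73 UMIs (edgeR adjusted p = 0.553). This class had SAP higher without overlap for 6.23% of 5587 genes. Across 16 classes and clusters tested, Slc11a2 was higher in SAP in 4 and lower in 12, a count that stands without the share over all genes.

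Ferritin transcripts had higher estimates in SAP in every class tested, without passing edgeR's main test in any. DESeq2 called Fth1 in SMC-like nuclei (adjusted p = 0.00731) and in T-like nuclei (adjusted p = 0.0154), and Ftl1 in SMC-like nuclei (adjusted p = 0.0154). These calls stand without the share of all genes that DESeq2 called in these classes, so they do not set ferritin apart. Fth1 over all nuclei was 314, 49.5 and 187 CPM in CON 1, 2 and 3 and 776, 651 and 285 CPM in SAP 1, 2 and 3. CON 1 lay above SAP 3, so the groups overlapped. The edgeR log2 fold change was 1.62 ± 0.762 (SE, n = 3 per group, adjusted p = 0.618), and ranged over the alternatives from 0.82 without CON 2 and SAP 1 to 2.62 without CON 1. Ftl1 was 99.3, 38.9 and 26.6 CPM in CON and 172, 194 and 36.8 CPM in SAP. CON 1 and CON 2 were above SAP 3, and the edgeR log2 fold change was 1.24 ± 0.820 (adjusted p = 0.743), ranging from 0.77 to 2.34 under these same alternatives.

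Class by class, Fth1 was higher in SAP in 18 of 18 classes and clusters (median log2 fold change 1.54) and Ftl1 in 17 of 17 (median 1.29). The classes come from the same 6 rats and are not independent. Of 1278 genes tested in 18 classes, 110 (8.61%) were higher in SAP in all of them, and of 1330 genes tested in 17, 182 (13.7%) were. The highest estimates were in SMC-like nuclei, at 2.20 ± 0.681 for Fth1 (edgeR adjusted p = 0.225) and 2.14 ± 0.659 for Ftl1 (adjusted p = 0.219). This was also the class with the most genes called by edgeR, 22 of 8823 (0.249%), and 11.4% of its genes had an unadjusted p under 0.05. In macrophage-like nuclei Fth1 was 146, 37.5 and 145 CPM in CON and 903, 428 and 212 CPM in SAP. All 3 SAP values were the higher, as for 3.82% of the 6854 genes tested there, and the log2 fold change was 2.06 ± 0.578 (edgeR unadjusted p = 0.00420, adjusted p = 0.881). In endothelial-like nuclei it was 225, 171 and 80.1 CPM against 807, 596 and 243 CPM, without overlap before TMM scaling, as for 4.79% of 4510 genes with SAP higher. The edgeR log2 fold change there was 1.61 ± 0.529 (adjusted p = 0.829), and 1.68 ± 0.346 (adjusted p = 0.0288) with the replicate number as a block, which was the only call of a member that the block gave. Endothelial-like nuclei numbered 15 in SAP 1 and 34 in CON 2, and macrophage-like nuclei 25 in SAP 1, so these levels rest on few nuclei.

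The order of the libraries in Fth1 was that of their mitochondrial RNA. Mitochondrial UMIs made up 0.692%, 0.171% and 0.410% of CON 1, 2 and 3 and 1.97%, 1.42% and 0.691% of SAP 1, 2 and 3. In both measures the order from highest to lowest was SAP 1, SAP 2, CON 1, SAP 3, CON 3 and CON 2, with CON 1 and SAP 3 nearly equal in mitochondrial share. Ftl1 did not follow this order, with SAP 2 above SAP 1 and CON 2 above SAP 3 and CON 3. UMIs of ribosomal protein genes also had another order. They made up 3.13%, 0.793% and 1.08% of CON 1, 2 and 3 and 3.69%, 1.35% and 1.82% of SAP 1, 2 and 3. CON 2 and SAP 1, the libraries with the deeper barcode lists, were also the lowest CON and the highest SAP library in Fth1. Leaving out both therefore lowers the difference by itself, and the result says nothing of mitochondrial RNA. Without them the edgeR log2 fold change of Fth1 was 0.82 over all nuclei and 0.26 in enterocyte-like nuclei. With nuclei of at most 1% mitochondrial UMIs it was 1.30 over all nuclei. That limit kept 6642 of 9246, 6176 of 6260 and 7924 of 8414 nuclei in CON 1, 2 and 3. In SAP 1, 2 and 3 it kept 384 of 3189, 1908 of 5968 and 6825 of 7893, so the loss was uneven. S100a8, the neutrophil gene, stood at 33.9, 0.526 and 3.80 CPM in CON and at 486, 3.74 and 90.6 CPM in SAP. The parts of cytoplasmic RNA and of neutrophils in the ferritin values were not tested.

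**Figure D5:**
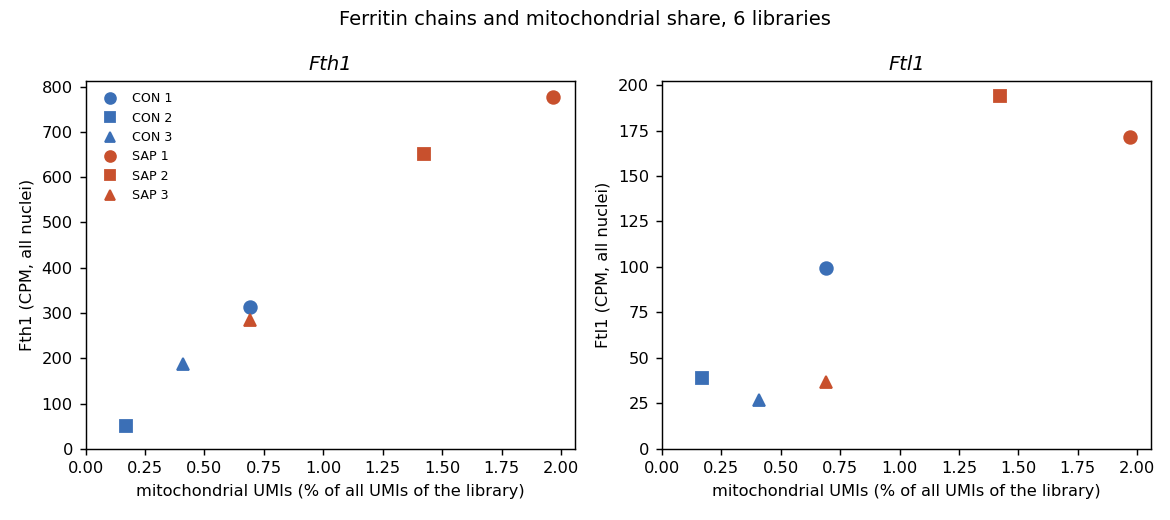
Fth1 (left) and Ftl1 (right) over all nuclei in CPM (vertical axes) against the share of mitochondrial UMIs in percent (horizontal axes), 1 point per library. For Fth1 the 6 points rise in the same order on both axes, from CON 2 (0.171%, 49.5 CPM) to SAP 1 (1.97%, 776 CPM). For Ftl1 they do not, with CON 2 above SAP 3 and CON 3 and SAP 2 above SAP 1.

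Ireb2 was 60.9, 90.4 and 97.0 CPM over all nuclei of the CON libraries and 73.3, 80.8 and 103 CPM in SAP. The groups overlapped, and the log2 fold change was 0.06 ± 0.201 (edgeR adjusted p = 0.966). Slc40a1 was 3.23, 2.37 and 3.39 CPM against 1.44, 1.03 and 4.27 CPM, with a log2 fold change of -0.56 ± 0.531 (edgeR adjusted p = 0.841), and was too low to be tested in any class.

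Over the 18 class tests, edgeR called none of the 104 pairs of a member and a class, beside 37 of 145505 pairs of any gene and a class (0.0254%). At an unadjusted p under 0.05 edgeR gave Fth1 in 7 classes, Ftl1 in 3, Heph in 2 and Slc11a2 in 1, beside 7.34% of all pairs, and DESeq2 called 3 pairs, all of ferritin. Ferritin pairs were likewise the members that edgeR called under alternatives, 8 in edgeR without the filter on low counts and 5 without SAP 3, besides that of the block. SAP 3 was the lowest SAP library in Fth1 and Ftl1 over all nuclei, so leaving it out raises their differences by itself. The counts under DESeq2 and the alternatives stand without the share of all pairs called there, so they do not set ferritin apart from other genes. In 11 of the 104 pairs the CPM of the groups did not overlap, 8 with SAP higher and 3 with SAP lower, beside 11.5% of the pairs of any gene. The 3 lower pairs were Slc11a2 in enterocyte-like and in stem/TA-like nuclei and Tfrc in cluster 9, at 69.0 CPM ± 6.28 in CON and 45.7 CPM ± 13.8 in SAP (5.13% of genes in cluster 9 were lower without overlap). The higher pairs were Fth1 in 4 classes, Ireb2 in 2, Slc11a2 in enteroendocrine-like nuclei and Heph in tuft-like nuclei, at 144 CPM ± 44.2 in CON and 227 CPM ± 41.1 in SAP (5.07% of genes in tuft-like nuclei were higher without overlap). The count among the iron genes was near that of all genes. With TMM scaling, of these Fth1 pairs only that in macrophage-like nuclei and of the Ireb2 pairs only that in cluster 11 stayed apart, while Slc11a2 became lower without overlap in endothelial-like nuclei.

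A list of 66 genes of iron handling, the 8 included, was read in the same fits. Of these, 62 were tested over all nuclei, 56 over epithelial nuclei and 44 in enterocyte-like nuclei, and edgeR called none. At an unadjusted p under 0.05 there were 9, 12 and 3 of them, beside 8.43%, 11.7% and 5.54% of all genes, and DESeq2 called 2, 2 and 0. The DESeq2 counts stand without the share of all genes called there. Over all nuclei 37 were higher and 25 lower in SAP, and their median log2 fold change was 0.17, beside 0.02 for all genes. The genes tested under storage were Fth1, Ftl1, Pcbp1, Pcbp2 and Ncoa4, of which the last serves ferritin breakdown. In each of these fits 5 of 5 were higher. Over all nuclei the estimates outside ferritin were within about 1 SE of 0, at 0.35 ± 0.316 for Ncoa4, 0.24 ± 0.343 for Pcbp1 and 0.09 ± 0.200 for Pcbp2. In enterocyte-like nuclei they were 0.05, 0.23 and 0.70. Genes of mitochondrial iron and iron-sulphur clusters were lower in 7 of 11 over all and over epithelial nuclei and in 6 of 11 in enterocyte-like nuclei. Genes of regulation were higher in 8 of 10 over all nuclei, 6 of 7 over epithelial and 5 of 6 in enterocyte-like nuclei. For the remaining roles the counts higher over all nuclei were 8 of 12 for uptake, 4 of 6 for export, 5 of 13 for heme and 3 of 5 for extracellular scavenging. Over all nuclei 52.2% of all genes tested were higher in SAP, a share not given here for the other fits.

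Among the named genes of the list, Hmox1, the heme oxygenase that frees iron from heme, was 2.02, 3.07 and 5.22 CPM in CON 1, 2 and 3 and 24.1, 5.42 and 27.6 CPM in SAP 1, 2 and 3. The groups did not overlap, as for 4.53% of genes with SAP higher over all nuclei, and the log2 fold change was 2.49 ± 0.579 (edgeR adjusted p = 0.545). Lcn2, which withholds iron from bacteria by binding their siderophores, was 0.521, 0.263 and 9.07 CPM in CON and 62.9, 21.0 and 23.4 CPM in SAP. It did not overlap either, with a log2 fold change of 3.74 ± 1.13 (edgeR adjusted p = 0.545), and in enterocyte-like nuclei it was 0, 0 and 2.47 CPM against 34.0, 7.71 and 5.68 CPM, where the counts of 0 allow up to 1.03 and 5.09 CPM in CON 1 and CON 2. S100a8, with the values given above, was highest in SAP 1 and SAP 3, and the part of neutrophils in these values was not tested.

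The regulators of the list gave smaller differences. Over epithelial nuclei the log2 fold change was 1.06 ± 0.387 for Epas1, the hypoxia-inducible factor of iron absorption, 0.77 ± 0.257 for Aco1, which encodes iron regulatory protein 1, and 0.64 ± 0.226 for Fbxl5, which targets Ireb2 protein for degradation, with edgeR adjusted p of 0.373 to 0.387. Ncoa4, the receptor for ferritin breakdown, had 0.37 ± 0.269. Over all nuclei the values were -0.47 for Steap3, an endosomal ferrireductase, 0.21 for Slc39a14, a metal importer, -0.11 for Cp, ceruloplasmin, -0.66 for Slc25a37, the mitochondrial iron importer, and 0.14 for Hfe, with edgeR adjusted p of 0.694 or above.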

How the data were processed

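The authors isolated nuclei from the ileum, used dnbc4tools to count the UMIs of every gene in every barcode, on the mRatBN7.2 build named in the submitters' processing notes, and deposited the raw count tables, from which all values here were computed. Barcodes under 1200 UMIs, under 500 genes or over 5% mitochondrial UMIs were removed, following the study's methods. The study states fewer nuclei than this filter leaves. Scrublet marked 0% of nuclei as doublets in every library by its own threshold, so the top 5% by score (2048 nuclei) were marked and left out as an alternative only. Barcode names are serial numbers, so the 195 to 746 names shared by pairs of libraries do not show shared nuclei.

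Nuclei were clustered with leidenalg 0.10.2 at resolution 0.8, on 30 components of 2000 variable genes, with the libraries integrated. The variable genes left out the iron genes, the mitochondrial genes and genes whose names start with Defa, RT1- or Reg3. Clusters with high scores for 2 unlike classes could be split by k-means, and classes were named from marker lists. Scrublet was run in scanpy 1.11.5. Class names rebuilt in this way can differ from the study's. UMIs were summed per library and class and tested with the robust quasi-likelihood fit of edgeR 4.0.16 (TMM scaling, genes kept by filterByExpr), with DESeq2 1.42.0 as the alternative, and gradients with limma 3.58.1 (prior count 2), all with Benjamini-Hochberg adjustment over every gene tested. The scripts were tested on simulated data. SE and adjusted p come from these fits, and Poisson intervals cover counting error only. In the edgeR and DESeq2 fits precision follows the counts, so small libraries weigh less. Means, SDs, permutation tests, levels with class shares held and the gradient give each library used the same weight, whatever its depth.

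The 8 genes were named in every fit, along with 11 fixed genes of the pathway list and the 3 genes most similar to each member. Genes and lists were chosen with earlier results of these data known. Same-numbered CON and SAP libraries deviated together from their group means (r over genes 0.577, 0.183 and 0.524, against -0.616 to 0.144 for other pairs), which is a sign from the data, since the labels give no shared litter or day. With 3 libraries per group these correlations constrain each other, so the sign is weak and the rats are not known to be matched. The main fits, the gradient and the permutation tests were unpaired. A fit with the replicate number as a block was an alternative, given where it changed a call.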

Additional observations from a re-analysis of the deposited data

How the results depend on the processing

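No gene of the 8 was called over all, epithelial or enterocyte-like nuclei under any alternative run. The causes of the changes below were not tested, except that fewer samples enter each fit without a library. DESeq2 called 214 genes over all nuclei, 343 over epithelial and 20 over enterocyte-like nuclei, 2 of the pathway list over all nuclei (Hmox1, Hp) and 2 over epithelial nuclei (Flvcr1, Lcn2), and 3 member tests in classes (Fth1 in SMC-like and T-like, Ftl1 in SMC-like nuclei). Without the filter on low counts edgeR called 118 genes in enterocyte-like nuclei, 1 of the list (Lcn2), and 8 member tests in classes. With the replicate block it called 1 member test (Fth1, endothelial-like), 0 genes over epithelial nuclei and 0 in the gradient, and the block changed no other call of a member. The epithelial count was also 0 with a depth covariate, with doublets left out, and without CON 2 and SAP 1 together (chosen after seeing the data). The enterocyte-like count was 1 at 1% mitochondrial UMIs, 1 at resolution 0.4 and 2 with no integration, and the gradient count was 0 under each of these, with a prior count of 0.5, and without CON 2 and SAP 1.

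Leaving out 1 library in turn gave 0 to 1 genes over all nuclei, 0 to 4 over epithelial nuclei, 0 to 2 in enterocyte-like nuclei, 0 to 1 in the gradient and 0 to 5 member tests in classes, the 5 without SAP 3 (Fth1 in T-like nuclei, Ftl1 in 4 classes). These counts of member tests, and those above, stand without the share of all tests called. Log2 fold changes kept their sign in 346 of 351 cases. The exceptions were in enterocyte-like nuclei, where lowest and highest, here and below, refer to leaving out 1 library unless a range is given. Cybrd1 was 0.061 without CON 3 and 0.11 without SAP 2 (lowest -1.88 without SAP 3), Heph -0.051 without CON 2 (highest 0.32 without CON 1, full range to 0.64), and Ireb2 -0.071 without CON 1 and -0.069 without SAP 3 (highest 0.14 without CON 3, full range to 0.17). With no integration the median gradient estimate over all genes tested was 0.64, beside 0.037 in the main fit. Gradients of members, none of them called, turned sign in 13 cases. Those of Slc11a2 were 0.29 at 1% mitochondrial UMIs, 1.75 with no integration and 0.098 without CON 1 (lowest -0.29, full range from -0.43). Cybrd1 gave -0.071 at resolution 0.4, -0.38 without CON 2 and -1.01 without SAP 3 (highest 1.18, full range to 2.29). Heph gave 1.42 with no integration, 0.26 without CON 1 and 0.18 without SAP 2 (full range from -0.30, without CON 2 and SAP 1). Fth1 gave 0.87 with no integration, 0.39 without CON 3 and 0.083 without SAP 2 (lowest -0.48), and Ftl1 -0.037 without CON 2 (highest 0.73, full range to 1.40). Fth1 over all nuclei ranged from 1.13 without CON 2 to 2.62 without CON 1, and was 0.82 without CON 2 and SAP 1. With 3 rats per group and under 300 UMIs of Slc40a1, small differences could not be seen.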

Other observations

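Other genes of the iron list, picked after their values were seen, also stood apart. Flvcr1, a heme exporter, was 16.02, 23.7 and 42.6 CPM over all nuclei of CON 1, 2 and 3 and 53.3, 50.2 and 58.2 CPM in SAP 1, 2 and 3. Each SAP library was above each CON library, as for 4.53% of genes over all nuclei, with a log2 fold change of 1.05 ± 0.292 (edgeR adjusted p = 0.545), and of 0.47 ± 0.319 in enterocyte-like and 0.35 ± 0.305 in stem/TA-like nuclei. Hp, haptoglobin, which binds free hemoglobin, was 0.904, 2.19 and 2.38 CPM in CON and 30.5, 1.74 and 6.02 CPM in SAP. SAP 2 lay within the CON range, and the log2 fold change was 2.99 ± 1.02 (edgeR adjusted p = 0.545).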
